A study of Homo sapiens with 2 samples.

Results

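The long arms of the acrocentric chromosomes 13, 14, 15, 21 and 22 were examined as partners of a DNA break reporter in U2OS, a human osteosarcoma cell line. The members were chosen by position alone: all 50 kb windows, called probes, that the deposited table places on these chromosomes, 8349 of 61607. The leading run of probes without a gene name, taken as the short arm and the centromere gap, was set apart (1573 probes), which left 6776 probes on the 5 long arms. On chromosome 21 this run ends early, so what is called its long arm here still holds a short-arm stretch and the centromere gap. They were compared with the 41365 probes of the other autosomes except 6, 12 and 17, the chromosomes with the strongest signal.

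The method was 4C-seq, in which crosslinked chromatin is cut with HindIII, ligated, cut again with Csp6I and circularised, and the sequences joined to 1 chosen fragment are recovered by inverse PCR. That fragment lay beside the I-SceI site of DRGFP, a transgene that yields GFP after a break at this site is repaired by recombination. Besides DRGFP the cells carried TRE-I-SceI and Tet-On (Clontech), no treatment was recorded, and the labels do not say whether the line is a single clone. Both libraries, replicates 1 and 2, are independent experiments of 1 group, so the comparisons are between regions within a library and the error is the spread between the 2 libraries. Replicate 1 held 944456 reads and replicate 2 held 454091, on 8.06% and 8.63% of all probes, and values are given in reads or in reads per 1000000 reads of the library (RPM).

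An acrocentric chromosome has its centromere close to an end. Its short arm carries the tandem ribosomal RNA genes and satellite repeats, and in interphase these short arms gather at nucleoli, where ribosomal RNA is made. The adjoining long arms are therefore often found beside nucleoli, while most of their genes lie farther along the arm. The long arms differ in gene content: that of chromosome 13 is poor in genes and that of chromosome 22 is rich. In these data 53.1% of the chromosome 13 long-arm probes and 84.9% of those of chromosome 22 overlapped a gene, against 59.6% on the other autosomes, and the shares were 61.5%, 68.7% and 58.2% for 14, 15 and 21.

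The leading runs were nearly empty. They extended from base 1 to 17900000 on chromosome 13, 18150000 on 14, 18300000 on 15, 9850000 on 21 and 14450000 on 22 (hg18). On chromosome 14 the probe from 18050001 to 18100000 had 1 read in replicate 1 and 2 in replicate 2, and on chromosome 21 the probe from 9750001 to 9800000 had 1 read in replicate 1. All 358, 366 and 289 leading probes of chromosomes 13, 15 and 22 were at 0 in both libraries, which allows shares of probes with reads of up to 0.838%, 0.820% and 1.04% (the limit is 3 counts, counting error only). Assembly gaps cannot receive reads, so these probes say nothing about the ribosomal arrays. On chromosome 21 the stretch taken as long arm still begins with probes at TPTE and BAGE2, members of families spread over several acrocentric chromosomes, followed by a run of 61 probes from 10250001 to 13300000 with neither a gene name nor a read. The former belong to the short arm and the latter is the centromere gap.

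Taken as 1 set, the 5 long arms had reads slightly less often than the other autosomes. Reads were found at 430 of 6776 long-arm probes in replicate 1 (6.35%, 95% Clopper-Pearson interval 5.78% to 6.95%) and at 440 in replicate 2 (6.49%, 5.92% to 7.11%), against 6.81% (6.57% to 7.06%) and 7.35% (7.10% to 7.60%) of the other autosomes' probes. The mean share was 6.42% ± 0.104 on the long arms and 7.08% ± 0.376 on the other autosomes (SD, n = 2). The difference was -0.661 ± 0.272 percentage points, in the same direction in both libraries. Tested in edgeR as detected probes against the number expected from the other autosomes, the ratio was 0.907 (log2 -0.14 ± 0.05 SE, quasi-likelihood adjusted p = 0.0123). The error in this test is the spread between the 2 libraries, not that between chromosomes. By mean share, single other autosomes ran from 5.05% (19) to 8.01% (8), a range that holds the 6.42% of the long arms. Chromosome 13 had reads at 105 and 107 probes, where 131 and 141 were expected. The call was lost without runs of 20 or more probes that carry no gene name (ratio 0.877, edgeR adjusted p = 0.0713). It was also lost when a probe needed at least 10 reads (0.818, adjusted p = 0.244). In both settings the ratio was lower than 0.907. The gene-free runs held 416 long-arm probes and 4301 probes of the other autosomes. Outside these runs, 6.93% (replicate 1) and 8.01% (replicate 2) of the other autosomes' probes without a gene had reads. With the runs included these shares were 6.24% and 7.08%. On the long arms they were 6.72% and 6.33% outside the runs, and 6.40% and 6.28% with them. The number of copies of an arm in these cells and contact per copy cannot be told apart, and HindIII fragments per probe were not corrected for.

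The single arms fell on either side of that mean. The long arm of chromosome 13 had reads at 105 of 1925 probes in replicate 1 (5.45%) and 107 in replicate 2 (5.56%). That of chromosome 22 had reads at 43 of 703 probes (6.12%) and at 37 (5.26%). Chromosome 21 had 35 of 742 (4.72%) in replicate 1 and 51 (6.87%) in replicate 2. On these 3 arms both libraries lay below the other autosomes. The long arm of chromosome 14 had reads at 129 of 1765 probes (7.31%) and at 127 (7.20%), and that of chromosome 15 at 118 of 1641 (7.19%) in each library. These arms lay above the other autosomes in replicate 1 and below them in replicate 2.

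**Figure D1:**
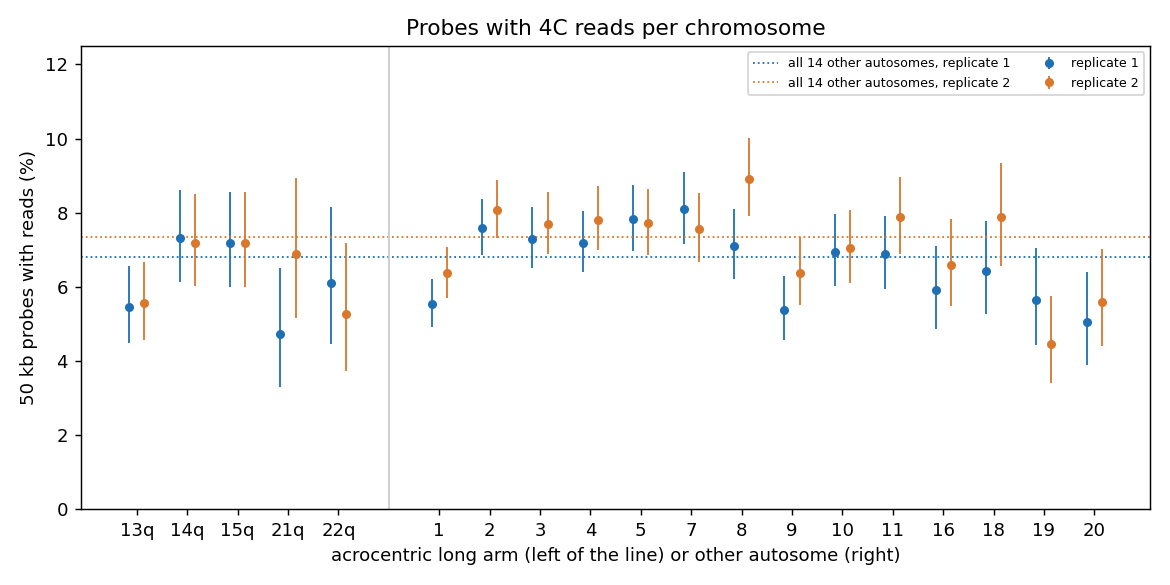
Share of 50 kb probes with reads (y axis, percent) on the 5 acrocentric long arms, left of the grey line, and on the 14 other autosomes, right of it; points are the libraries, bars are 95% Clopper-Pearson intervals and dotted lines are the shares over all 14 other autosomes. The long arm of chromosome 13 sits at 5.45% and 5.56%, below both lines (6.81% and 7.35%), and those of 14 and 15 sit at 7.19% to 7.31%.

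Chromosome 13 was the single arm whose shortfall passed the test. Its ratio to the other autosomes was 0.778 (log2 -0.36 ± 0.12 SE, 95% interval of the ratio 0.650 to 0.931, edgeR quasi-likelihood adjusted p = 0.0407 over 19 autosomes). Of the 19, 6 passed in either direction (31.6%) and 4 were lower (21.1%), chromosomes 1, 9 and 19 beside 13, so in this setting a low share was not confined to acrocentric chromosomes. The comparison is not like for like, since a leading run was set apart on the acrocentric chromosomes alone. The others kept all their runs of 20 or more gene-free probes: 561 probes on 1, 406 on 9 and 194 on 19, against 147 on 13. Without such runs 0 of 19 passed. By the mean of both libraries 13 stood at 5.51% ± 0.0735 (SD, n = 2), with chromosomes 19 (5.05%) and 20 (5.32%) below it. The ratios of the other arms were 1.02 for 14 (interval 0.871 to 1.2), 1.02 for 15 (0.854 to 1.21), 0.818 for 21 (0.581 to 1.15) and 0.804 for 22 (0.562 to 1.15). With edgeR adjusted p of 0.901, 0.901, 0.319 and 0.316, none of these passed, and for 21 and 22 the intervals leave room for a shortfall as large as that of 13. The value of 21 includes its centromere gap, and without gene-free runs its ratio was 0.853.

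The shortfall of chromosome 13 was also present where only probes that overlap a gene were compared. There, 5.38% and 5.48% of its 1022 probes had reads, against 7.21% and 7.53% of such probes on the other autosomes (ratio 0.737, edgeR adjusted p = 0.00661). Of its probes without a gene 5.49% had reads in each library, against 6.24% and 7.08% on the other autosomes, which was not tested. Without the runs of 20 or more gene-free probes the ratio of all its probes was lower than in the main setting, 0.749, but did not pass (edgeR adjusted p = 0.0759). Set against the gene-poor chromosomes 4 and 18, a comparison chosen after seeing the data, chromosome 13 was still lower (ratio 0.744, edgeR adjusted p = 0.00147). Of 19 autosomes 6 were called there, 6 of them lower. Against the gene-dense chromosomes 16, 19 and 20, also chosen after seeing the data, its ratio was 0.979 (adjusted p = 0.847), while 14 and 15 stood at 1.29 and 1.28 times that level (edgeR adjusted p = 0.0215 for each). That background holds the autosomes with the lowest mean shares, 19 (5.05%) and 20 (5.32%). Of 19 autosomes 8 were called against it, 0 of them lower, so a higher call was not particular to 14 and 15.

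Read numbers set chromosomes 13 and 22 apart from the other arms more widely than detection did. The long arm of 13 averaged 1.31 RPM per probe in replicate 1 and 2.32 in replicate 2, and that of 22 averaged 1.77 and 1.49. Chromosome 14 averaged 4.37 and 4.61, chromosome 15 averaged 5.10 and 4.05, and chromosome 21 averaged 5.0 and 4.15. The other autosomes together averaged 4.15 and 4.11, and single ones ran from 1.85 to 6.54 in replicate 1 and from 1.82 to 5.78 in replicate 2. With reads in place of detected probes, chromosome 22 had a ratio of 0.394 (edgeR adjusted p = 0.0282) and chromosome 13 of 0.440 (adjusted p = 0.311). All 5 long arms together held 2.36% and 2.34% of the reads of the libraries. A large part came from few probes: the 5 highest probes carried 49.2% and 50.9% of the reads of 13, and 78.2% and 80.4% of those of 22. This was not particular to these arms, since the 5 highest carried 51.1% and 54.4% on 14, 50.3% and 48.7% on 15, and 82.2% and 53.8% on 21. On chromosome 13, 59.0% of the detected probes of replicate 1 rested on a single read, against 40.7% on the other autosomes, while replicate 2 had 29.9% against 31.8%.

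Over the 5 arms together, the stretch next to the centromere had the lowest detection, though on 13 and 21 another section was lower by the mean of both libraries. Each arm was cut into 4 sections of equal probe number, numbered from the centromere. The first sections together had reads at 4.30% of 1697 probes in replicate 1 and 4.71% in replicate 2. Section 2 had 6.97% and 7.26%, section 3 had 7.97% in each library and section 4 had 6.15% and 6.03%. In section 1 all 5 arms lay below the other autosomes in both libraries. The range there was 2.27% (chromosome 22) to 4.62% (15) in replicate 1 and 3.41% (22) to 5.91% (21) in replicate 2. The ratio of the first sections was 0.637, which did not pass over all sections of the autosomes (log2 -0.65 ± 0.04 SE, edgeR adjusted p = 0.0804). The SE reflects how closely the 2 libraries agreed and lies below counting error. The first sections passed among probes that overlap a gene (ratio 0.627, log2 -0.67 ± 0.13 SE, edgeR adjusted p = 2.15e-05), where the ratio was close to the main one. More sections passed in that setting: with the arms kept apart, 11 of 76 were called, 7 of them lower, against 3 and 1 in the main setting. On chromosome 21 the first section holds the short-arm probes and the centromere gap, the empty run of 61 probes. Without such runs the ratio of the first sections on the log2 scale was -0.66 (edgeR adjusted p = 0.0688). This split was chosen after seeing the data. On the other autosomes, most of which have the centromere within, section 2 was the lowest, with 5.88% and 6.26% of probes. Single ones ran there from 1.42% to 7.93% in replicate 1 and from 1.28% to 9.40% in replicate 2. Their section 1 ran from 4.06% to 10.5% and from 2.81% to 12.1%, so low sections were not confined to acrocentric arms.

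**Figure D2:**
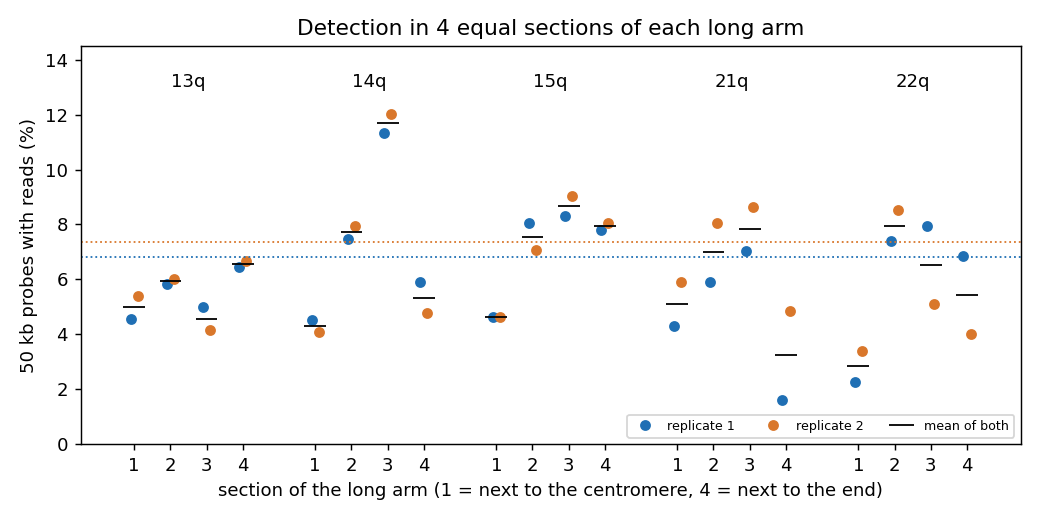
Share of probes with reads (y axis, percent) in 4 equal sections of the 5 long arms, from the centromere side (1) to the chromosome end (4); points are the 2 libraries, black bars their mean, dotted lines the other autosomes. Section 1 of every arm lies below both lines, and section 3 of chromosome 14 lies highest, at 11.3% and 12%.

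A list of 28 genes from duplicated families and from the first megabases, which also holds GOLGA members farther along 15, had reads at 1 gene in replicate 1 (3.57%) and at 3 in replicate 2 (10.7%). Of all gene names of the long arms, 11.2% and 10.9% had reads. ZMYM2, a zinc finger gene on chromosome 13 (19400001 to 19450000), had 1 read in replicate 1 and 0 in replicate 2. A26B1, now POTEB (19300001 to 19350000 on 15), had 0 and 4 reads. These counts cover 50 probes, of which 1 and 3 had reads, against 6.31% and 6.62% of all long-arm probes that carry a gene name. The sources used here do not state how reads in duplicated sequence were treated.

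The highest section of the 5 arms was section 3 of chromosome 14, from 62300001 to 84350000. Reads were found at 50 of its 441 probes in replicate 1 (11.3%) and at 53 in replicate 2 (12%). Its ratio to the other autosomes was 1.65 (log2 0.72 ± 0.05 SE, edgeR adjusted p = 0.0379). The SE reflects how closely the 2 libraries agreed and lies below counting error. Among 76 sections of all tested autosomes, 2.63% were called higher and 1.32% lower, and this was the single acrocentric section called. Genes overlapped 73.5% of its probes, against 59.6% on the other autosomes. Among gene-overlapping probes alone its ratio was 1.55 (adjusted p = 0.0163 by edgeR), and without gene-free runs it was 1.58 (adjusted p = 0.0648). Its neighbours were lower, section 2 with 7.48% and 7.94% and section 4 with 5.90% and 4.76%.

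**Figure D3:**
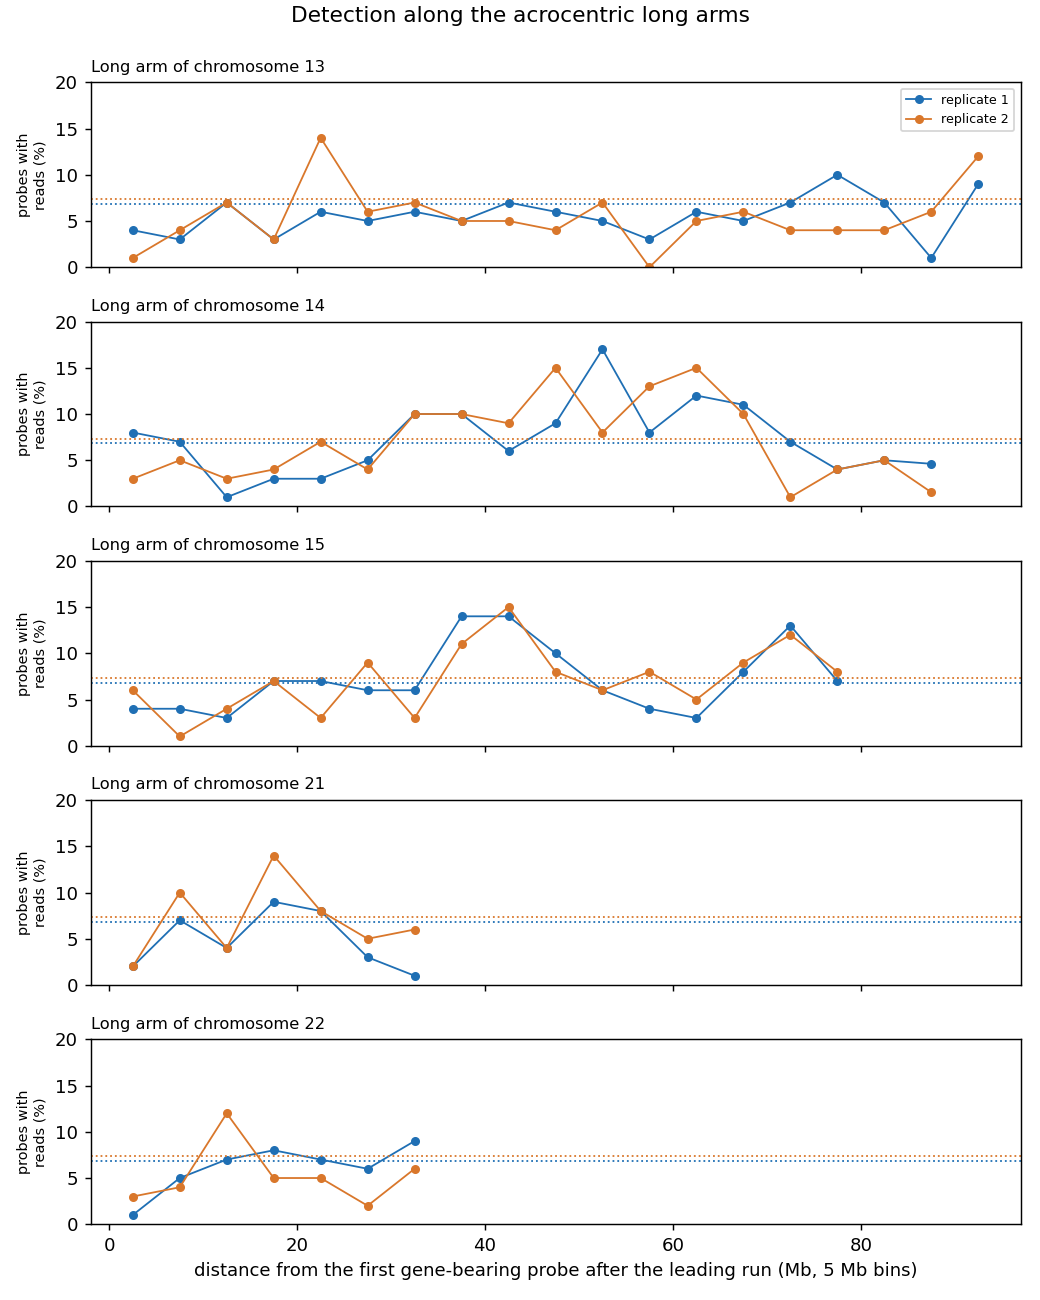
Share of probes with reads (y axis, percent) in 5 Mb bins against distance from the first gene-bearing probe of each long arm (x axis, Mb); lines are the 2 libraries and dotted lines the other autosomes. On chromosome 14 both libraries stay at 10% or more from 60 to 70 Mb, and on chromosome 15 both lie at 11% to 15% from 35 to 45 Mb.

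Chromosome 15 had its own raised stretch. In the 5 Mb bin from 53300001 to 58300000 reads were found at 14% and 11% of 100 probes, and in the next one, to 63300000, at 14% and 15%. Another bin with both libraries above 10% lay from 88300001 to 93300000, with 13% and 12%. No test was run on these bins, which were read off the profile. TCF12, CHD2 and RAB8B lie in them.

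Window by window, 1 place on the long arms stood out. Of 2406 windows of 1 Mb on the tested autosomes, 0.0831% were called higher by edgeR at an adjusted p under 0.05, and the long arms held 1 of 339. It is the window from 82000001 to 83000000 on chromosome 14, where 6 of 20 probes had reads in replicate 1 and 7 in replicate 2, a ratio of 4.59 (log2 2.20 ± 0.50 SE, edgeR adjusted p = 0.0135). The window lies in a desert between SEL1L, a subunit gene of the endoplasmic reticulum degradation machinery, whose last probe ends 900 kb before it, and FLRT2, a cell adhesion gene that begins 2100 kb after it. Only clone-based names fall within it. Over the 80 probes between those genes, 12 had reads in replicate 1 and 11 (13.8%) in replicate 2. Without this window section 3 of 14 still had reads at 10.5% and 10.9% of probes.

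The reads of this window came from different probes in the 2 libraries. Of 11 probes with reads, 2 had them in both. Replicate 1 had 1273 of its 1754 reads (72.6%) at the probe from 82200001 to 82250000, where replicate 2 had 3, and a further 191, 159 and 128 reads at probes where replicate 2 had 0, 1 and 0. Replicate 2 had 140 reads in all, with 64, 38 and 27 at probes where replicate 1 had 0. The call was lost with windows of 500 kb (edgeR adjusted p = 0.132) or 2 Mb (0.186) and when a probe needed at least 2 reads (0.0591). With reads in place of detected probes the adjusted p was 0.828.

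**Figure D4:**
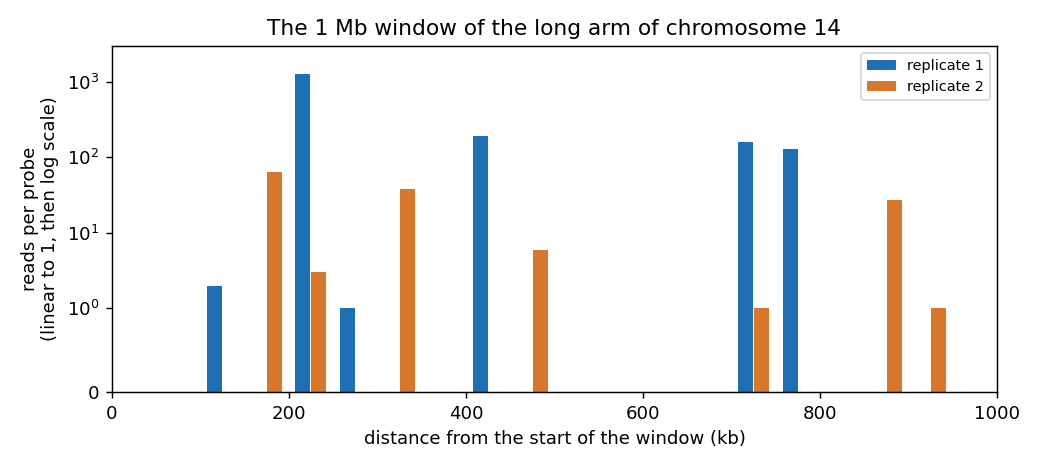
Reads per 50 kb probe (y axis, linear to 1 and logarithmic above) against distance from the start of the called 1 Mb window of chromosome 14 (x axis, kb), with replicate 1 in blue and replicate 2 in orange. Detected probes are spread over the window, and at 2 of 11 both libraries have reads.

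The top windows of the other arms did not pass. On chromosome 15 the window from 60000001 to 61000000, with VPS13C, a lipid transfer gene, and TLN2, the gene of the adhesion protein talin 2, had reads at 4 and 5 of 20 probes (edgeR adjusted p = 0.541). On 13 the window from 41000001 to 42000000, with DGKH, a diacylglycerol kinase gene, and AKAP11, an anchoring protein gene for protein kinase A, had 3 and 3, tied with 3 other windows of this arm and named as the first of them. On 21 the window from 26000001 to 27000000 held JAM2, GABPA and APP, the gene of the amyloid precursor protein, with reads at 2 and 5 probes. On 22 the window from 24000001 to 25000000, with MYO18B and SEZ6L, had 2 and 3. The edgeR adjusted p of these last 3 was 0.870.

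Few long-arm probes were seen in both experiments. Reads were present in both libraries at 84 of 6776 probes (1.24%), 3.01 times the 27.9 that libraries with independent detection would share. The other autosomes had 553 (1.34%), 2.67 times their 207. By arm the counts were 17 on chromosome 13, 25 on 14, 27 on 15, 8 on 21 and 7 on 22. The levels did not follow presence: 43 of the 84 differed 10-fold or more in RPM (51.2%, against 51.2% of the 553). At 21 of the 84, one library had 100 reads or more and the other 2 or fewer, as at 123 of the 553. Of 52 long-arm probes with 100 reads or more in replicate 1, 35 had 0 in replicate 2 (67.3%), and 15 of 27 such probes of replicate 2 had 0 in replicate 1 (55.6%).

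**Figure D5:**
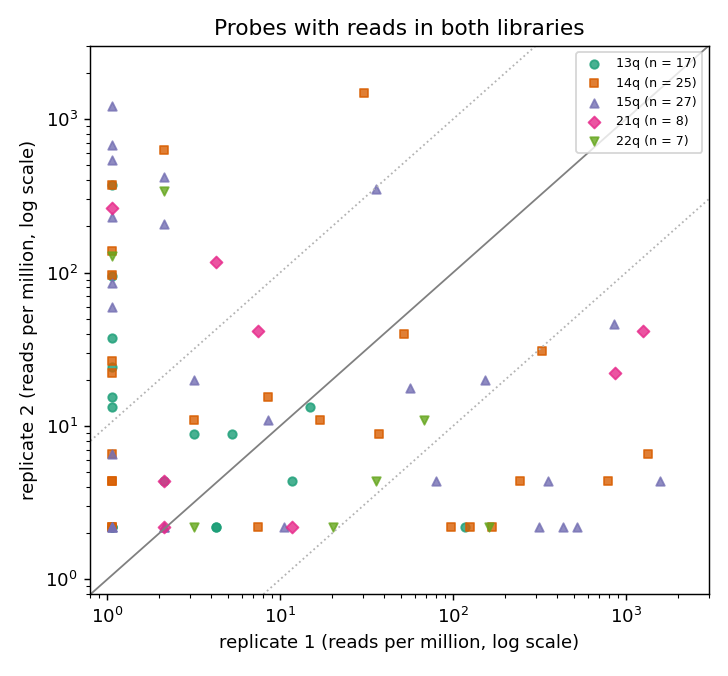
RPM in replicate 1 (x axis, log scale) and replicate 2 (y axis, log scale) at the 84 long-arm probes with reads in both libraries, by arm; the grey line marks equal values and the dotted lines a 10-fold difference. Of the 84 points 43 lie on or outside the dotted lines, most of them along the axes at 1 or 2 reads in the other library.

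The highest gene-overlapping probes, ranked by the lower of the 2 libraries, are described without a test because their values chose them. The table gives 1 gene name per probe and does not say whether it covers exon or intron. On chromosome 15, TCF12, a helix-loop-helix transcription factor gene (54950001 to 55000000), had 851 RPM in replicate 1 and 46.2 in replicate 2. CHD2, a chromatin remodeller gene (91200001 to 91250000), had 36.0 and 348 RPM. DUOXA1, a maturation factor gene for dual oxidase (43200001 to 43250000), had 154 and 19.8 RPM. Replicate 1 was the higher library for TCF12 and DUOXA1 and the lower one for CHD2. RAB8B, a small GTPase gene of membrane traffic (61250001 to 61300000), had 8.47 and 11 RPM, which is 8 and 5 reads. FBXO22, an F-box gene of a ubiquitin ligase (74000001 to 74050000), had 354 RPM in replicate 1 and, from 2 reads, 4.4 in replicate 2.

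On chromosome 14 the leading genes lay mostly in section 3. PLEKHG3, a guanine exchange factor gene (64250001 to 64300000), had 49 and 18 reads, or 51.9 and 39.6 RPM, which differ by less than 2-fold. TMED10, a cargo receptor gene of the early secretory pathway (74700001 to 74750000), had 30.7 and 1480 RPM. LIN52, a subunit gene of the DREAM complex that represses cell cycle genes (73650001 to 73700000), had 242 and 4.4 RPM. Both thus differed more than 10-fold between libraries, in opposite directions. PCNX, now PCNX1 (70550001 to 70600000), had 119 reads and 1 read. VRK1, a chromatin kinase gene (96300001 to 96350000), had 7 reads and 1 read, and it lies outside that section.

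The genes of chromosome 13 ranked this way had 1 to 14 reads. SLITRK5, a gene of a neuronal membrane protein (87100001 to 87150000), led with 14 and 6 reads, 14.8 and 13.2 RPM, a mean of 14 ± 1.14 (SD, n = 2). SLC10A2, the intestinal bile acid transporter gene (102450001 to 102500000), had 11 and 2 reads, and ABCC4, an efflux pump gene (94500001 to 94550000), had 3 and 4. AKAP11 (41750001 to 41800000), had 1 read in each library. The single highest probes of this arm carried no gene name and were not shared: 358 and 0 reads from 67700001 to 67750000, and 0 and 279 from 109400001 to 109450000.

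Chromosomes 21 and 22, the shortest of these arms, had few genes with reads at the same probe in both libraries. Probes with reads in both made up 1.08% of 21 and 0.996% of 22, against 0.883% of 13 and 1.24% over the 5 arms. SOD1, the gene of copper-zinc superoxide dismutase (31950001 to 32000000 on 21), had 860 RPM in replicate 1 and 22 in replicate 2, from 812 and 10 reads. UMODL1 (42350001 to 42400000) had 4 and 53 reads, and JAM2, a junctional adhesion molecule gene (26000001 to 26050000), had 11 reads and 1 read. No further gene name of 21 met the rule. The highest probe of this arm had no gene: from 28150001 to 28200000 it held 1192 reads in replicate 1, 34.0% of the arm's reads there, and 19 in replicate 2. On 22, TBC1D22A, a gene with a Rab-GTPase activating domain (45850001 to 45900000), had 67.8 and 11 RPM. SGSM1 (23600001 to 23650000) had 36.0 and 4.4 RPM, and FAM109B, now PHETA2 (40800001 to 40850000), 162 and 2.20. TTC28 (27100001 to 27150000) had 19 reads and 1 read, and IGLV5-52, a variable segment of the immunoglobulin lambda locus (21000001 to 21050000), had 3 reads and 1 read.

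A gene-dense stretch of chromosome 22 had no reads at all. From 17850001 to 20700000, 57 consecutive probes were at 0 in both libraries although 96.5% of them overlap a gene. It holds 42 gene names, among them TBX1, the heart and pharyngeal transcription factor gene of the 22q11 deletion syndrome, DGCR8, a microRNA processing factor gene, and CRKL, an adaptor gene. Of the 20 listed genes of the 22q11 deletion region, 0 had reads in either library, and 14 of them lie in this stretch. Their 29 probes at 0 allow a share of up to 10.3%, and at the other autosomes' share 1.98 and 2.13 of them would have reads, so a lower level was not detectable at this depth. Stretches at least as long numbered 2 on the 5 long arms and 18 on the other autosomes, where 5 of the 18 had most of their probes within genes, the longest with 70 probes.

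Other gene groups of these arms were described by counts. Over all 2224 gene names of the long arms, 11.2% had reads in replicate 1 and 10.9% in replicate 2, against 12.9% and 13.1% of names on the other autosomes. Among 24 genes listed for the Down syndrome region of chromosome 21, 2 had reads in replicate 1 and 6 in replicate 2. By probe, 2 and 7 of the list's 83 had reads, where 5.66 and 6.10 were expected at the other autosomes' share. The list reaches back to APP at 26150001. SOD1 alone had reads in both, and at 31950001 it lies before DYRK1A (37650001) and the DSCR genes (from 37300001). BACE2, a membrane protease gene, had 0 reads in replicate 1 and 129 in replicate 2. DYRK1A, a kinase gene, and RUNX1, a blood cell transcription factor gene, had 0. Of 12 genes of the imprinted domains of 14q32 and 15q11-q13, 3 had reads in replicate 1 alone and 2 in replicate 2 alone. They cover 52 probes, of which 3 and 2 had reads, where 3.54 and 3.82 were expected. GABRG3, a GABA receptor subunit gene, had 627 and 0 reads in replicates 1 and 2, and MKRN3, an imprinted gene of pubertal timing, had 318 and 0. UBE3A, the ubiquitin ligase gene of Angelman syndrome, and MEG3, a non-coding RNA gene, had 0 in each.

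Of 20 listed genes of double-strand break repair and response, 6 had reads in replicate 1 (30%), against 2 in replicate 2 (10%). Of all gene names of the long arms, 11.2% and 10.9% had reads. By probe, 7 and 2 of the list's 47 had reads, where 3.20 and 3.45 were expected at the other autosomes' share. RAD51L1, now RAD51B, had 169 and 3 reads and BLM had 155 and 7, in each case at different probes. MLH3, a mismatch repair gene on 14 (74550001 to 74600000), had 749 reads in replicate 1 and 0 in replicate 2. BRCA2, a gene of homologous recombination, and LIG4, the end-joining ligase gene, had 0. Among 20 tumour suppressor and osteosarcoma-related genes 4 and 3 had reads (20% and 15%). They cover 39 probes, of which 4 and 3 had reads, where 2.66 and 2.87 were expected. TRAF3, an adaptor gene of immune signalling, was detected at the same probe in both libraries with 1 and 3 reads, and RB1, the retinoblastoma gene, had 0. Of 24 bone and matrix genes, 5 and 6 had reads (20.8% and 25%). They cover 60 probes, of which 5 and 7 had reads, where 4.09 and 4.41 were expected. FBN1, the fibrillin gene of microfibrils, had 1 and 108 reads, SMAD3, a mediator of TGF-beta signalling, 1 and 39, and COL4A2, a basement membrane collagen gene, 1 and 11. Other members leaned the other way, such as ADAMTS5, a matrix protease gene, with 33 and 0 reads, and COL6A1, a collagen gene, with 1 and 0.

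A list of 46 genes taken as very long, some of which span only 2 or 3 probes of this table, was described with the longest gene of each arm. The list covers 496 probes, of which 5.44% and 5.65% had reads, against 6.31% and 6.62% of all named long-arm probes, which include them, and the difference was not tested. NRXN3, a synaptic adhesion gene and the longest of 14 with 34 probes, had reads at 1 probe in replicate 1 and 3 in replicate 2. GPC5, a glypican gene with 30 probes and the longest of 13, had 2 and 1. DSCAM, a neuronal adhesion gene with 17 probes on 21, had 0 and 1. AGBL1, a carboxypeptidase gene with 18 probes on 15, had 2 and 2, with 551 reads of replicate 2 at the probe from 84600001 to 84650000 where replicate 1 had 1. TTC28, with 15 probes the longest of 22, had 2 and 3. SLCO3A1, an organic anion transporter gene on 15, had 1 read in each library at the same probe.

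Of the remaining lists, 19 immune receptor and related genes had reads at APOBEC3G, a cytidine deaminase gene, with 10 reads in replicate 1 and 0 in replicate 2, while the others had none. Of 9 keratin-associated and other clustered genes of 21, KRTAP6-1 had 1 read in replicate 1 alone. This is 11.1% of the list in replicate 1, where 11.2% of all gene names of the long arms had reads. Its 11 probes at 0 in replicate 2 allow a share of up to 27.3%. With so few probes, these 2 lists cannot be told from an average one. Of 21 housekeeping and ribosomal protein genes, 4 had reads in replicate 1 and 1 in replicate 2. They cover 25 probes, of which 4 and 1 had reads, where 1.70 and 1.84 were expected. ATP5O, now ATP5PO, a subunit gene of mitochondrial ATP synthase, had 130 reads in replicate 1 and 0 in replicate 2.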

How the data were processed

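The deposited table gives a signal for each library over probes of 50 kb, per the file headers. Coordinates are those of hg18, which the submitters' processing notes name. Aligner, read filters and annotation are not stated in the sources used here. The deposited signal proved to be whole multiples of 1 step per library (100% within 0.1 read), that is reads per 1000000, from which reads were recovered. The final 2 rows (a total and a mean) and the mitochondrial probe were left out.

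A probe counted as detected with at least 1 read. Numbers of detected probes per arm, section or 1 Mb window were tested against the number expected from the other autosomes' share, as an offset in edgeR 4.0.16 (R 4.3.3) with both libraries as replicates. The quasi-likelihood F statistic was formed from the deviances, because edgeR's own test needs 2 design columns, and p-values were adjusted by Benjamini-Hochberg over all features of a fit. The test treats probes as independent and the expected share as known. Each SE was derived from the test statistic and reflects the agreement of the 2 libraries, so it can lie below counting error. On the long arms the next probe also had reads at 7.91% and 12.5% of detected probes, and on the other autosomes at 8.02% and 8.56%. Intervals are Clopper-Pearson and cover counting error only, since PCR copies without molecular identifiers are not independent molecules. The procedure was run on simulated counts drawn independently for each library. These lack the shared detection between libraries and between neighbouring probes seen here, so that run does not cover those features.

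Named are the 5 gene names of each arm with the highest probe by the lower library, the longest gene, the top window, and 2 members of each gene list, except members tied without reads; some genes that the rule names are not reported here, and further members are given with their values to describe a list. Of 1543 usable names, 1251 matched a symbol and 278 a single synonym in RefSeq GRCh38.p14, used for names alone. The members and lists were chosen with earlier results of these data known. Genes stated in the text at 0, the stretch on 22 and the 5 Mb bins were chosen after their values were seen.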

Additional observations from a re-analysis of the deposited data

How the results depend on the processing

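No paired analysis was possible because both libraries form 1 group. Log2 ratios to the other autosomes are given. For chromosome 13 (-0.36) the call was lost without gene-free runs (-0.42) and with reads as readout (-1.18), where the ratio itself was lower. It was also lost against chromosomes 16, 19 and 20 (-0.0305), and the cause was not tested. The 5 arms together (-0.14) lost the call at 10 reads (-0.29) and without gene-free runs (-0.19), although the ratio was lower in each. Chromosomes 14 (0.03) and 15 (0.02), never called in the main setting, changed sign at 2 reads (-0.0439 and -0.0153), at 10 reads (-0.13 and -0.14), without gene-free runs (-0.0279 and -0.0412), with the leading run kept (-0.22 and -0.27), and against chromosomes 4 and 18 (-0.0297 and -0.0420). Against 16, 19 and 20 both were called higher (0.37 and 0.35), and chromosome 14 was at -0.0467 over gene-overlapping probes. Mean log2(RPM + 1) gave -0.00583 and -0.00321, and log2(RPM + 0.1) -0.00282 and -0.00119. Chromosome 21 (-0.29) turned at 10 reads (0.19), with reads (0.15) and against 16, 19 and 20 (0.0432), and was called lower with the leading run kept (-0.61). Chromosome 22 (-0.32) was called lower with the leading run kept (-0.81) and with reads (-1.34), and stood at 0.0168 against 16, 19 and 20. Keeping the leading run adds probes that are almost all without reads, which by itself lowers the ratio of every arm. The calls and sign changes in that setting therefore say nothing about the long arms. The first sections (-0.65) were called over gene-overlapping probes (-0.67). The number of long-arm windows called, 1, was 0 with 500 kb or 2 Mb windows, at 2 reads and with reads as readout.

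Of the 19 autosomes, 6 were called in the main setting, 8 with the leading run kept, with all unlinked autosomes or with 16, 19 and 20 as background, 3 over gene-overlapping probes, 2 with reads, 1 at 10 reads and 0 without gene-free runs, where 4 had an unadjusted p under 0.05. Of 76 sections, 3 were called in the main setting, 11 over gene-overlapping probes and 0 without gene-free runs (18 unadjusted). The comparisons with chromosomes 4 and 18 and with 16, 19 and 20, and the sections, were chosen after seeing the data. Leaving out 1 of 2 libraries returns the other and tests nothing: without replicate 1 and without replicate 2 the values were -0.40 and -0.32 for 13, -0.0300 and 0.10 for 14, -0.0310 and 0.0774 for 15, -0.0961 and -0.53 for 21, and -0.48 and -0.16 for 22. At about 7% of probes detected, a 1 Mb window without reads cannot be told from an average one.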

Other observations

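The long arms held long stretches without reads in either library. The longest on chromosome 13 ran from 74750001 to 76900000 (43 probes) and covers LMO7, UCHL3, a ubiquitin hydrolase gene, and MYCBP2, a large ubiquitin ligase gene. On 15 it ran from 25400001 to 27500000 (42 probes), over OCA2, a pigmentation gene, and HERC2, which encodes a large ubiquitin ligase. On 21 the longest, 65 probes from 10100001 to 13350000, is mostly the gap after BAGE2, with 61 probes without a gene. Of the 1 Mb windows of the long arms, 10.3% had no reads in either library, against 11.3% on the other autosomes.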
